A study of Homo sapiens with 4 samples.

Results

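The data described here cover 6 human genes, RIMKLB, SHISA2, CYP27A1, HSD17B2, SPON2 and YPEL3, out of 26255 gene symbols in a deposited expression table. They were picked because each stood higher with the drug GSK458 than in the control, and higher with GSK458 plus As2O3 than with As2O3 alone. All 6 symbols were found, and all 6 were among the 12260 genes whose average over the libraries reached 1 FPKM (fragments mapped to a gene, scaled for transcript length and library size). RNA came from TOV21G, an established line grown from an ovarian clear cell carcinoma. The 4 groups were cells given no drug (control), As2O3 (arsenic trioxide, a thiol-reactive drug) at 1 µM, GSK458 (an inhibitor of the kinases PI3K and mTOR) at 0.1 µM, and both drugs at these doses. Drug exposure lasted 48 h, while the labels give no time for the control. Every group was 1 library of the same cell line, so no value below has a replicate error and no test could be run.

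PI3K and mTOR carry growth signals from insulin and other growth factors. Through the kinase AKT they hold FOXO transcription factors out of the nucleus, so FOXO target genes are typically derepressed when the pathway is blocked. The 6 genes come from separate corners of cell biology. RIMKLB joins glutamate to N-acetylaspartate or citrate. CYP27A1 is a mitochondrial cytochrome P450 that hydroxylates the side chain of sterols, the entry to the alternative route of bile acid synthesis. HSD17B2 oxidises estradiol and testosterone to their less active keto forms. SHISA2 belongs to a family of membrane proteins, some of which hold FGF and Wnt receptors back in the endoplasmic reticulum. SPON2, also called mindin, is a secreted matrix protein of the spondin family. YPEL3 is a small zinc-binding protein of the yippee family, known as a p53-induced brake on growth.

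RefSeq promoter windows were at hand for 5 of the 6 genes, all but HSD17B2, 8 windows in all, since RIMKLB and SPON2 have more than 1 annotated start. Each window runs from 250 bases before to 50 bases after a start, on build GRCh38.p14. The sequences of RIMKLB, SHISA2, CYP27A1 and YPEL3 are shown because these genes were all higher with GSK458 and because YPEL3 carries the letters of a FOXO motif. They are printed from 250 bases before the start to 10 bases after it, on the gene's own strand, and capitals mark the matches to the motifs described next. RIMKLB is read from the plus strand of chr12:8697741-8698000, SHISA2 from the minus strand of chr13:26052007-26052266, CYP27A1 from the plus strand of chr2:218781897-218782156 and YPEL3 from the minus strand of chr16:30096204-30096463.
RIMKLB: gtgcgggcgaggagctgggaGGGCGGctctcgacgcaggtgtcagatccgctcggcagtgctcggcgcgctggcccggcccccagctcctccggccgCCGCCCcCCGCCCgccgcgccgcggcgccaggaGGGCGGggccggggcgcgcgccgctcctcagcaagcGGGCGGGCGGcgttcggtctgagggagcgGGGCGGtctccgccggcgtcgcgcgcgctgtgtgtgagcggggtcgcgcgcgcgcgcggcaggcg
SHISA2: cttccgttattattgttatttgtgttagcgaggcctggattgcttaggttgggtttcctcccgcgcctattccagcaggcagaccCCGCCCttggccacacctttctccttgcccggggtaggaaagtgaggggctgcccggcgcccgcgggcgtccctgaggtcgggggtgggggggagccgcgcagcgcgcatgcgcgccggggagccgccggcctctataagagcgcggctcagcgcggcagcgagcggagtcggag
CYP27A1: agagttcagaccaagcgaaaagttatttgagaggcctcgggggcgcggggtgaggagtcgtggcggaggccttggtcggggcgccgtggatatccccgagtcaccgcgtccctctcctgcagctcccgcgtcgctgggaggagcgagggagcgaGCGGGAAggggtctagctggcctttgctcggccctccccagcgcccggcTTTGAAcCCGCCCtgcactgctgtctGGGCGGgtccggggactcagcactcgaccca
YPEL3: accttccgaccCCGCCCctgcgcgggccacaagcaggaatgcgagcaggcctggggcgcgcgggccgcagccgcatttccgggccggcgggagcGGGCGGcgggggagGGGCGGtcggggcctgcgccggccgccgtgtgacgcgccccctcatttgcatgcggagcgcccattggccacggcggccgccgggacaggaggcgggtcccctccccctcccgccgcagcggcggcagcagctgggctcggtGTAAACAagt

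Short motifs were searched on both strands of the full windows. The FOXO motif, TGTTTAC, occurred in 1 of the 8 windows, that of YPEL3. There it lies on the reverse strand and covers the bases 1 to 7 counted from the annotated start. The same letters occurred in 3.42% of all 35116 windows of this length. The GC box, GGGCGG, was found in 6 of the 8 windows and in 45% of all windows. The RIMKLB window shown holds 7 of these matches, of which 2 overlap. The E2F motif, TTCCCGC, occurred for CYP27A1 alone, and in 6.55% of all windows. The cell cycle element CHR, searched as TTTGAA, was likewise found for CYP27A1 alone, and in 15.2% of all windows. The box of core promoters spelled TATAAA was in the most upstream SPON2 window and in 11.5% of all windows. The insulin response element, CAAAACA, was in none of the 8 windows and in 4.92% of all windows. The E-box, CACGTG, was in none of the 8 and in 7.26% of all windows. The AP-1 motif, TGACTCA, was in none of the 8 and in 4.95% of all windows. The GC content of the YPEL3, SHISA2 and CYP27A1 windows was 79.0%, 69.7% and 68.7%, and that of the RIMKLB window shown was 80.3%, against a median of 58.7% over all windows. The other RIMKLB window was at 42.7%, and the 3 windows of SPON2 were at 56.3%, 64.3% and 70.3%. A match is a description of letters and does not show that a factor binds there, and which start these cells use is not known.

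The libraries were alike in size. The number of reads behind the FPKM values is unknown. From the steps between low values, relative depth put the other libraries at 85.8% (both drugs) to 109% (GSK458) of the control's depth. FPKM sums ran from 543975 (control) to 588892 (GSK458). Markers of clear cell carcinoma matched the label in part. PAX8, KRT8 and KRT18 were at 83.6 FPKM or more in every library and ANXA4 at 156 FPKM or more, while NAPSA stayed at or below 1.06 FPKM and EPCAM at or below 1.71 FPKM. Summed levels of endothelial markers stayed at or below 0.0786 FPKM, those of immune markers at 1.07 to 4.38 FPKM, nearly all of it CD68 with PTPRC and CD3E listed at 0, and those of fibroblast markers at 2.32 to 5.98 FPKM with LUM and COL3A1 listed at 0.

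**Figure D1:**
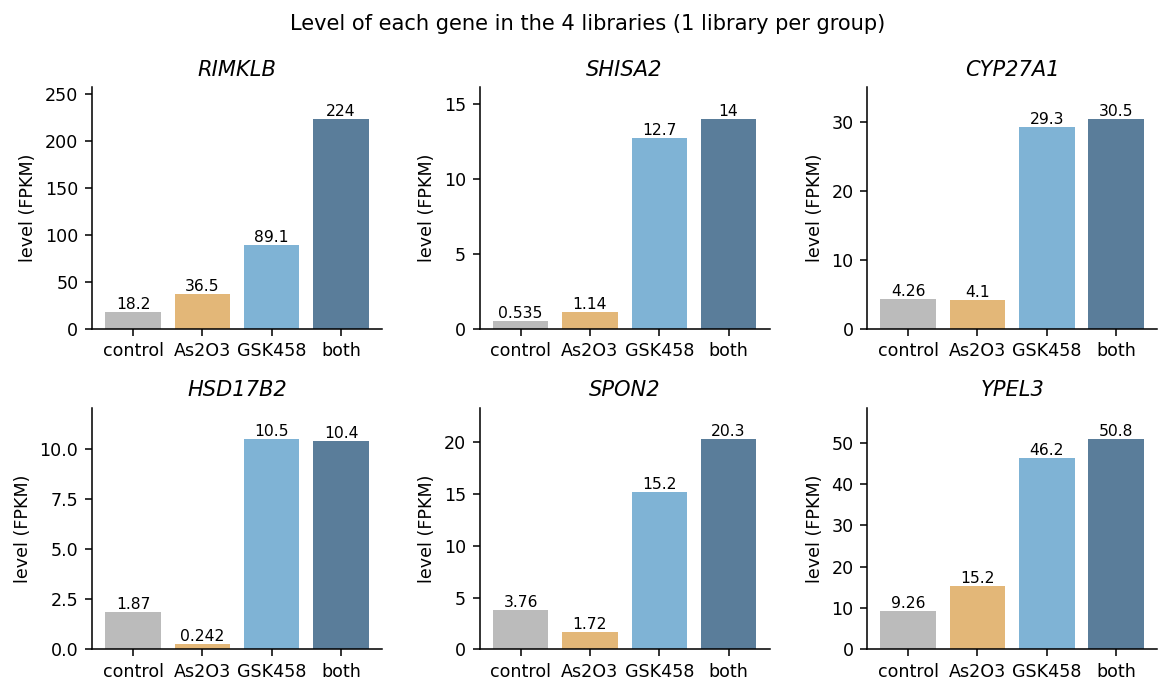
Bars give the level of each gene in FPKM (y axis, starting at 0, scaled per gene) for each of the 4 libraries (x axis). In every panel the lower of the GSK458-containing bars is above the higher of the other pair, by 2.44-fold for RIMKLB to 11.1-fold for SHISA2.

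RIMKLB was the most abundant of the 6 genes in all 4 libraries. It stood at 18.2 FPKM in the control, 36.5 FPKM with As2O3, 89.1 FPKM with GSK458 and 224 FPKM with both drugs. Each drug library was thus higher than the control, and the combination was highest. GSK458 stood 4.89-fold above the control and the combination 6.15-fold above As2O3. As2O3 itself stood 2.0-fold above the control and the combination 2.52-fold above GSK458. On the log2(FPKM + 1) scale, which is used for all differences below, the combination lay 3.55 above the control, the 15th largest difference of 12260 genes. Among all tested genes RIMKLB was above 64.8% in the control library and above 97.5% in the combination library. The human genome annotation (GENCODE release 29) lists a pair of processed pseudogenes of RIMKLB, and a ribosomal pseudogene and an antisense gene that overlap it. How reads shared with such copies were counted is unknown, so its level is uncertain to that extent.

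CYP27A1 followed GSK458 and was almost level between libraries with and without As2O3. It stood at 4.26 FPKM in the control, 4.10 FPKM with As2O3, 29.3 FPKM with GSK458 and 30.5 FPKM with both. The ratio to the matching library without GSK458 was 6.86 without As2O3 and 7.44 with it. The As2O3 differences were −0.04 without and 0.06 with GSK458. No other gene is annotated across its locus, and no pseudogene carries its name.

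HSD17B2 was the gene with the widest span, 43.4-fold between its highest and lowest library. Its levels were 1.87 FPKM in the control, 0.242 FPKM with As2O3, 10.5 FPKM with GSK458 and 10.4 FPKM with both. The As2O3 library was the low one, and the GSK458-containing libraries were nearly equal. GSK458 stood 5.63-fold above the control, while the combination stood 42.9-fold above As2O3, a ratio over a level close to 0. On the log2 scale, which damps low levels, these differences were 2.01 and 3.20. An antisense gene overlaps the locus in the annotation. The As2O3 level is low enough for the added constant to matter: the As2O3 difference of −1.21 was −2.52 with 0.1 FPKM added and −0.39 with 5 FPKM added.

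SHISA2 was the lowest of the 6 in the control. It stood at 0.535 FPKM there, 1.14 FPKM with As2O3, 12.7 FPKM with GSK458 and 14.0 FPKM with both. The control level lay above only 0.62% of tested genes and the GSK458 level above 54.2%. Genes averaging below 1 FPKM are not among the tested genes, and SHISA2 passed only through its GSK458-containing libraries. Its low rank in the control thus largely follows from the filter. The GSK458 differences of 3.15 without and 2.81 with As2O3 ranked 12th and 18th of all tested genes. With 5 FPKM added in place of 1 they were 1.67 and 1.63, and with 0.1 FPKM added 4.33 and 3.51. The low denominators make its ratios, 23.6-fold and 12.3-fold, less certain than those of RIMKLB or YPEL3, and no read counts were available to bound them.

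SPON2 had the same order of libraries as RIMKLB at the top but not at the bottom. It stood at 3.76 FPKM in the control, 1.72 FPKM with As2O3, 15.2 FPKM with GSK458 and 20.3 FPKM with both. As2O3 was the lowest library and the combination the highest. The ratio of GSK458 to the control was 4.04 and that of the combination to As2O3 was 11.8. Here too an antisense gene overlaps the locus.

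YPEL3 stood at 9.26 FPKM in the control, 15.2 FPKM with As2O3, 46.2 FPKM with GSK458 and 50.8 FPKM with both. The 3 drug libraries were all above the control. GSK458 stood 4.99-fold above the control and the combination 3.35-fold above As2O3, the smallest GSK458 ratio among the 6 genes in that pair. An antisense gene overlaps it as well, and whether strand was used in counting is unknown for all of these loci.

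Because the genes were chosen on them, the GSK458 differences are a description only. All 6 genes were at least 2-fold higher with GSK458 than in the control, where 2.35% of tested genes were, and all 6 were at least 2-fold higher in the combination than with As2O3, where 2.28% were. None was 2-fold lower, where 3.87% and 4.27% of tested genes were. In both pairs together 0.759% of tested genes were at least 2-fold higher, 2.5% at least 2-fold lower and 34.2% higher by any amount. The combination was at least 2-fold above the control for all 6 as well, where 3.25% of tested genes were higher and 4.31% lower by that much. Differences ran from 1.77 (SPON2) to 3.15 (SHISA2) in the first pair and from 1.68 (YPEL3) to 3.20 (HSD17B2) in the second. The medians of the 6 were 2.22 and 2.72, against −0.01 and −0.02 over all tested genes. Of 9803 genes with at least 5 FPKM in a library and no small RNA symbol, ranked by the smaller of both differences, the 6 lay between rank 3 (SHISA2) and rank 13 (YPEL3). The 7 other genes down to that rank were GPX3, H3F3A, LOC100505817, TMEM27, FAM134B, MEGF6 and BAIAP3. Just inside the edge, MEGF6 had a smaller difference of 1.75, BAIAP3 of 1.71 and YPEL3 of 1.68. Just outside it, the nuclear RNA NEAT1 had 1.58, EPB41L4A-AS1 1.57 and the protease inhibitor SERPINE2 1.54. No gap in values therefore separates the 6 genes from those ranked next.

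**Figure D2:**
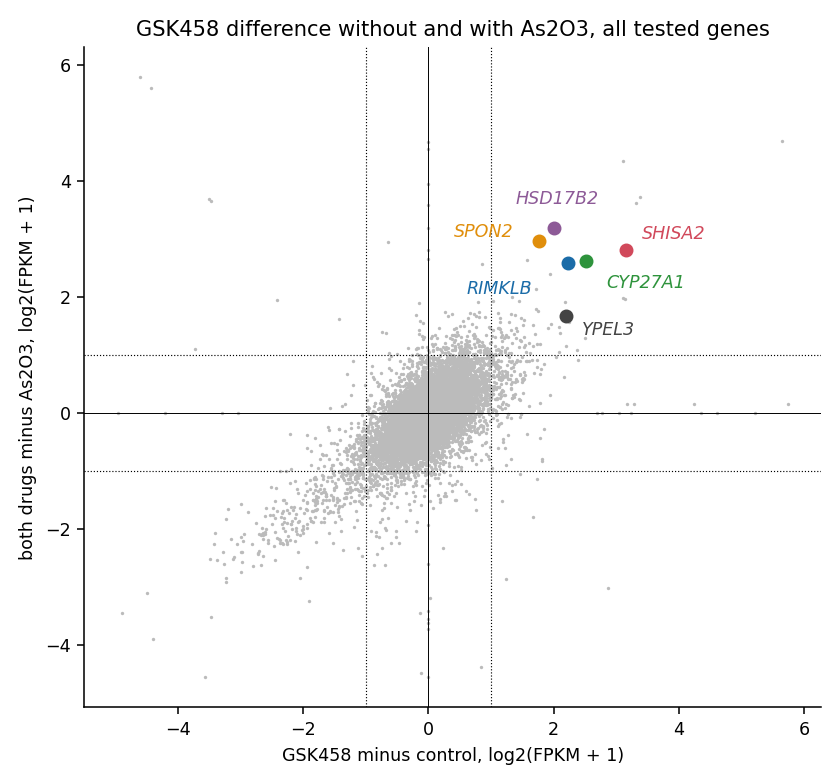
Each grey point is 1 of 12260 tested genes, placed by its log2(FPKM + 1) difference between GSK458 and control (x axis) and between both drugs and As2O3 (y axis), with dotted lines at 2-fold. The 6 coloured points sit in the upper right corner, between 1.77 and 3.15 on the x axis and between 1.68 and 3.20 on the y axis.

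The response to As2O3 was not used to choose the genes, although the same libraries enter, and it differed among them. As2O3 against the control, and the combination against GSK458, share no library with each other. Without GSK458, 3 genes were higher with As2O3 and 3 lower. The median over all tested genes was 0.01, so a near-even split is also that of all genes. RIMKLB (0.96), YPEL3 (0.66) and SHISA2 (0.48) were higher, and HSD17B2 (−1.21), SPON2 (−0.81) and CYP27A1 (−0.04) lower. On this scale none of the 6 reached 2-fold higher, although the plain FPKM ratio of SHISA2 was 2.13, where 2.07% of tested genes did, and HSD17B2 was the only one of the 6 at least 2-fold lower, where 1.41% did. The plain FPKM ratio of SPON2 was 0.457, and its difference was −1.08 with 0.1 FPKM added in place of 1. The central 90% of all tested genes lay between −0.65 and 0.70, so that CYP27A1 and SHISA2 were inside the range of most genes, and HSD17B2, SPON2 and RIMKLB were outside it, and YPEL3 was inside.

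In the presence of GSK458 the As2O3 differences of most of the genes were small. They were 1.32 for RIMKLB, 0.39 for SPON2, 0.13 for SHISA2, 0.13 for YPEL3, 0.06 for CYP27A1 and −0.01 for HSD17B2. RIMKLB was the only one of the 6 at least 2-fold higher, where 0.644% of tested genes were, and it ranked 36th from the top. None of the 6 was 2-fold lower, where 0.318% were. HSD17B2, the lowest with As2O3 alone, was level here at 10.5 and 10.4 FPKM.

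**Figure D3:**
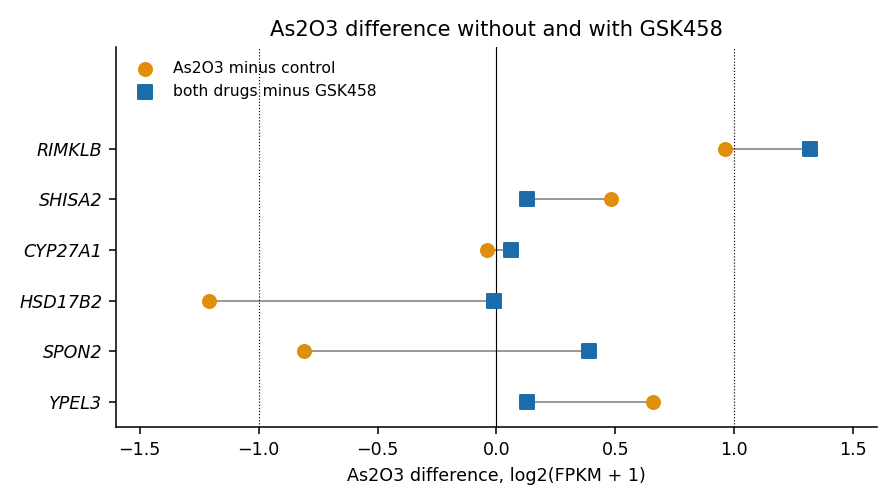
Circles give the log2(FPKM + 1) difference of As2O3 to the control and squares that of both drugs to GSK458 (x axis) for each gene (y axis), with dotted lines at 2-fold. HSD17B2 goes from −1.21 to −0.01 and SPON2 from −0.81 to 0.39, while RIMKLB is at 0.96 and 1.32.

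The departure from additivity, the GSK458 difference in the presence of As2O3 less that in its absence, was 1.20 for SPON2 and 1.19 for HSD17B2, which placed them 95th and 96th from the top of 12260 genes. A departure of at least 1 was found in 1.33% of tested genes, and one of −1 or below in 2.05%. Both values depend on the added constant: with 5 FPKM added they were 0.71 for SPON2 and 0.38 for HSD17B2, and with 0.1 FPKM added 1.5 and 2.51. The other 4 genes lay between −0.52 (YPEL3) and 0.36 (RIMKLB), inside the central 90% of all genes, −0.70 to 0.65. For SPON2 and HSD17B2 the As2O3 library, which is subtracted here, held their lowest level, and the second GSK458 pair used to choose the genes contains the same library, so these departures are not independent of the choice. ANXA4, a marker of clear cell carcinoma, was also lowest in the As2O3 library, at 310 FPKM in the control, 156 FPKM with As2O3, 297 FPKM with GSK458 and 287 FPKM with both. PAX8, another marker on that list, was highest with As2O3, at 149 FPKM. The part of these markers in the result was not tested.

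The 6 genes also differed in how alike their patterns were. Likeness was the Euclidean distance between the 3 differences to the control, over 4 libraries that all 3 differences share through the control. HSD17B2 and SPON2 were the closest pair among the 6, at 0.49, followed by CYP27A1 and YPEL3 at 0.81. This closeness of HSD17B2 and SPON2 depends on the added constant. With 0.1 FPKM added in place of 1, their As2O3 differences to the control were −2.52 and −1.08, farther apart than 0.49. Distances were not computed with other constants. RIMKLB and HSD17B2 were farthest apart, at 2.68. Over all eligible genes, SPON2 lay closest to NEAT1, the RNA scaffold of paraspeckles, at 0.37, and the levels of NEAT1 were 28.6 FPKM without drug, 20 FPKM under As2O3, 87.3 FPKM under GSK458 and 130 FPKM under both. HSD17B2 lay closest to SPON2, followed by TMEM27 (also known as collectrin, 0.57) and NEAT1 (0.85). The levels of TMEM27, listed likewise, were 5.95, 3.09, 25.8 and 20.5 FPKM, again with As2O3 lowest. YPEL3 lay closest to FAM134B, a receptor for autophagy of the endoplasmic reticulum, at 0.19, then to the guanylate-binding protein GBP2 (0.36) and C10orf54 (0.38). FAM134B was also the gene nearest to CYP27A1 (0.65), at 0.365, 0.899, 5.19 and 6.16 FPKM. RIMKLB and SHISA2 shared LOC100505817 as their nearest gene (0.66 and 0.61), and the next of RIMKLB were SERPINE2 (0.91) and the ligand SHH (1.04). H3F3A, second for SHISA2 at 0.69, has near-identical copies and is uncertain. Eligible genes needed at least 5 FPKM in 1 library. FAM134B, GBP2, C10orf54, LOC100505817, SHH and H3F3A reached that only with GSK458 present, so their likeness is not independent of this rule. In the control FAM134B, GBP2 and C10orf54 were at 0.365, 0.146 and 0.598 FPKM. Such levels are below the 1 FPKM added, so distances to these genes also depend on that constant.

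Genes of the same families and pathways were read across both GSK458 pairs. Among the enzymes of N-acetylaspartylglutamate and glutamate, 8 genes besides RIMKLB could be compared, and none was at least 2-fold higher in either GSK458 pair (medians 0.10 and −0.14). RIMKLA, the related ligase, stayed between 0.26 and 0.68 FPKM and below the filter. FOLH1, which cleaves N-acetylaspartylglutamate, was listed at 0 in every library. GOT1, the cytosolic aspartate aminotransferase, was lower in both pairs, going from 69.1 FPKM to 30.9 FPKM without As2O3 and from 69.6 FPKM to 32.9 FPKM with it.

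For the sterol enzymes around CYP27A1, 13 other genes passed the filter, with medians of −0.14 and −0.17 in the GSK458 pairs. CYP24A1, the mitochondrial hydroxylase that inactivates vitamin D and, like CYP27A1, draws electrons from ferredoxin, was the only one at least 2-fold higher in both pairs. It stood at 0.0251 FPKM in the control, 0.365 FPKM with As2O3, 1.27 FPKM with GSK458 and 2.73 FPKM with both, all low levels. CYP24A1 passed the filter only through its GSK458-containing libraries, so this call is not independent of the filter. Its electron donors FDX1 and FDXR had differences of −0.01 and −0.26 with GSK458 against the control. STARD4, a carrier of cholesterol, was at −0.60 and −1.10. Of 11 genes of the LXR sterol receptors and their targets, none was at least 2-fold higher with GSK458 against the control and SMPDL3A was in the second pair (1.07). SCD (−2.08 and −2.40) and SREBF1 (−1.42 and −0.71), which act in fatty acid synthesis, were lower.

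Among the dehydrogenases of the HSD17B name, 8 genes besides HSD17B2 passed the filter, and their medians were −0.27 and −0.40. HSD17B11, a lipid-droplet enzyme, was 58.1 FPKM without drug against 143 FPKM under GSK458, a difference of 1.29, and at 0.89 in the second pair. HSD17B1, which catalyses the reverse reaction of HSD17B2 on estrogens, had differences of 0.13 and 0.63. Of the other sex steroid genes 11 of 27 passed the filter, and 11 were listed at 0 in every library, among them the aromatase CYP19A1 and the receptor PGR. CYP1B1, which hydroxylates estrogens, was at 41.1 FPKM without drug, 15.8 FPKM under As2O3, 78.0 FPKM under GSK458 and 52.3 FPKM under both, a difference of 0.91 and 1.66 in the GSK458 pairs. The steroid sulfatase STS was lower with GSK458 against the control (−1.2) and not in the second pair (0.49), where its As2O3 level was already low at 1.16 FPKM. SULT2B1, a sterol sulfotransferase, was at −1.05 in both pairs. AKR1C1 was at −1.73 and −0.79, and reads of its close paralogs could be split between them, so this value is uncertain.

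The other SHISA genes differed little between libraries. SHISA4, SHISA5 and SHISA9 passed the filter, at differences of 0.09, 0.08 and 0.30 with GSK458 against the control, and 3 of the 8 family genes were listed at 0 in every library. SHISA5 was the most abundant, between 104 and 117 FPKM. The FGF and Wnt receptors, on which some proteins of this family act, had medians of −0.03 and 0.26 over 14 genes. FGFR4 was lower in both pairs (−1.42 and −1.01), and FGFRL1, a receptor without a kinase domain, had 1.00 and 0.34. FZD4 was lower with As2O3 than in the control, at 5.74 and 17.9 FPKM.

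The matrix genes related to SPON2 were mostly low. SPON1 was at or below 0.0804 FPKM in every library, and 14 of 21 genes of the list fell below the filter. Among the 6 others that passed, with medians of 0.21 and −0.28, CTGF measured 4.70 FPKM without drug and 17.3 FPKM under GSK458 (difference 1.68, and 0.70 in the second pair). CYR61, of the same CCN family, was at 0.43 and −1.23. Of the integrins that bind mindin, ITGB1 and ITGA5 were expressed, at 651 and 20.1 FPKM in the control, and differed by 0.30 and −0.30 with GSK458.

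For YPEL3, the other yippee genes YPEL1, YPEL2 and YPEL5 passed the filter, and none was 2-fold higher. Their median was 0.47 with GSK458 against the control and 0.00 in the second pair. YPEL5, the most abundant in the control, stood at 39.0 FPKM there and between 53.5 and 54.8 FPKM in the drug libraries. Among 18 growth arrest genes, GADD45A was at least 2-fold higher with GSK458 against the control (1.17) but lower in the second pair (−1.51). GADD45B (0.38 and −1.24) and the CDK inhibitor CDKN1A (0.18 and −1.21) were lower in the second pair, in which their As2O3 levels were high. The CDK inhibitor CDKN2C was lower in both pairs, at −1.99 and −1.49.

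YPEL3 was also counted in the list of FOXO factors and targets, of which 29 other genes passed the filter. With GSK458 against the control 22 of the 29 were higher and 6 at least 2-fold, with a median of 0.49, where 49.4% of all tested genes were higher and 2.35% at least 2-fold. In the second pair 20 were higher and 2 at least 2-fold, with a median of 0.27, where 47.7% of all tested genes were higher and 2.28% at least 2-fold. IGF1R, the receptor of insulin-like growth factor, was the only one besides YPEL3 at least 2-fold higher in both, at 2.41 FPKM in the control, 2.11 FPKM with As2O3, 7.28 FPKM with GSK458 and 8.21 FPKM with both. PIK3IP1 (1.46 and 0.68), IRS2 (1.38 and 0.74), the autophagy gene GABARAPL1 (1.32 and 0.43) and SOD2 (1.14 and 0.10) passed 2-fold in the first pair, and CITED2 (0.81 and 1.16) in the second. GADD45A, also on this list, passed 2-fold upward in the first pair (1.17) and downward in the second (−1.51). TSC22D3 was lower in both pairs, at −1.13 each. FOXO1 itself measured 19.5 FPKM without drug and 28.6 FPKM under GSK458. Some genes of the list were also higher with As2O3 in the absence of GSK458. With As2O3 against the control 18 of the 29 were higher, with a median of 0.14, against 0.01 over all tested genes. Of these, 5 were at least 2-fold higher, where 2.07% of all tested genes were. They included GADD45A (2.51), SOD2 (1.83) and GABARAPL1 (1.06). YPEL3 itself, chosen for its GSK458 differences, is left out of these counts.

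**Figure D4:**
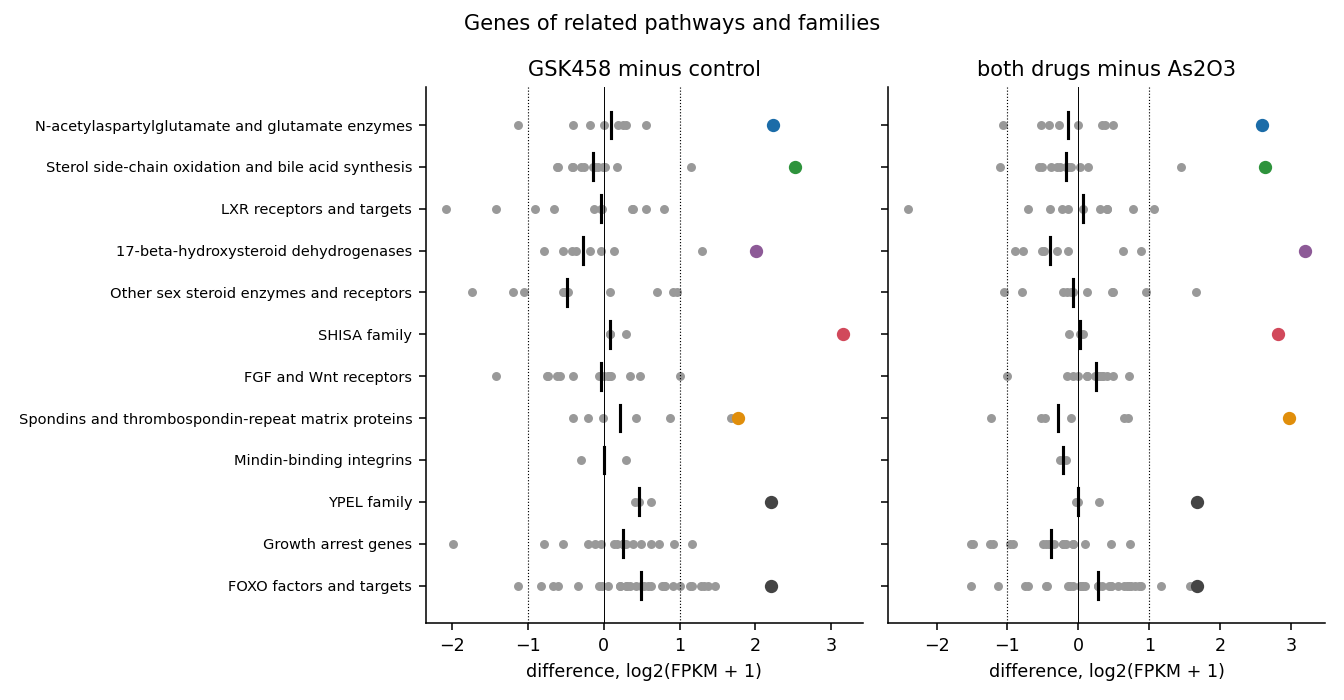
Each point is a tested gene, placed by its log2(FPKM + 1) difference (x axis) in GSK458 against control (left) and both drugs against As2O3 (right), grouped by list (y axis), with dotted lines at 2-fold and a black tick at the median without the 6 genes. The coloured points of the 6 genes lie to the right of the other genes of their lists, and list medians lie between −0.48 and 0.49 on the left.

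The genes next to each of the 6 on the chromosome gave a readout that the choice did not use. The order of protein-coding genes was taken from RefSeq on GRCh38.p14, 3 on each side. Of 36 such neighbours 33 were in the table and 21 passed the filter. Over all tested genes 2.35% were at least 2-fold higher with GSK458 against the control and 3.87% lower. In the second pair these shares were 2.28% and 4.27%. At such shares few or no calls would be found among any 21 genes. With GSK458 against the control none of the 21 reached 2-fold in either direction, with a range of −0.63 to 1.00 and a median of −0.10. In the second pair 1 was at least 2-fold higher and none 2-fold lower, with a median of −0.14. That gene was STK36, a kinase near CYP27A1 on chromosome 2, at 6.77 FPKM in the control, 5.39 FPKM with As2O3, 12.8 FPKM with GSK458 and 13.2 FPKM with both. WNT6, on the other side of CYP27A1, had differences of 0.93 and 0.85. GDPD3, beside YPEL3 on chromosome 16, measured 0.241 FPKM without drug and 1.48 FPKM under GSK458, just short of 2-fold on the log2 scale. Next to RIMKLB, HSD17B2 and SPON2 the neighbours that passed the filter differed by less than 0.5 in the GSK458 pairs. HSD17B2 and YPEL3 are both on chromosome 16, and the other 4 genes lie on chromosomes 12, 13, 2 and 4.

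**Figure D5:**
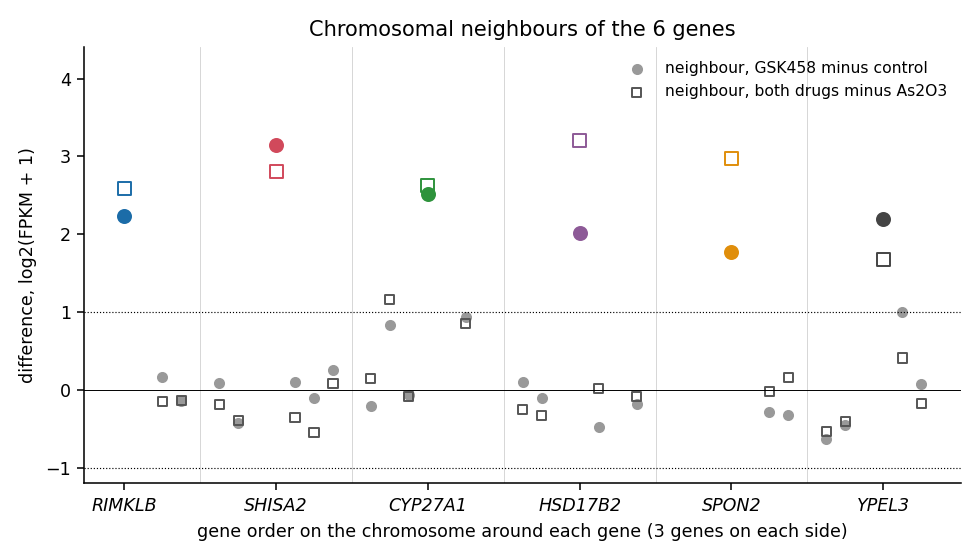
Points give the log2(FPKM + 1) difference (y axis) of each of the 6 genes (coloured) and of their neighbours in chromosomal order (grey, x axis), filled circles for GSK458 against control and open squares for both drugs against As2O3, with dotted lines at 2-fold. The neighbours lie between −0.63 and 1.16, and each of the 6 genes, chosen for being high here, lies above its own neighbours.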

How the data were processed

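Expression in TOV21G cells was measured by RNA-seq in 4 libraries, 1 per group, prepared with a strand-preserving mRNA kit per the labels' protocols. The authors deposited 1 FPKM value per gene symbol and library. The submitters' processing notes name Cuffdiff 2.2.1, TopHat2 2.1.1, SAMtools 0.1.18 and Bowtie2 2.2.8, and the build hg19, with no roles. The annotation, strand setting and handling of multi-mapped reads are unknown, so overlapping genes and near-identical copies are uncertain. FPKM keep no counts, so no counting interval was computed.

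No rescaling was applied. Genes averaging 1 FPKM or more were compared as differences of log2(FPKM + 1), a scale that understates changes of low genes, and counted as called at 2-fold. No test is possible with 1 library per group. Relative depth came from the ratio most common, to 3 decimals, among genes below 0.5 FPKM in the control. The calls were tried on simulated data, with changes planted only in well-expressed genes and no counting error. That trial does not cover low levels, such as those of SHISA2 in the control or HSD17B2 with As2O3.

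The 6 genes, the 12 pathway lists, the 4 marker lists and the naming rule were chosen with earlier results of these data known. The rule names list genes at least 2-fold apart in either GSK458 pair, otherwise the 2 most abundant, the 3 nearest patterns of each gene and the 3 genes on either side of the lowest rank. Some further genes were named after their values were seen: RIMKLA, FOLH1, FDX1, FDXR, HSD17B1, CYP19A1, PGR, SPON1, FZD4, FOXO1, SHISA9, YPEL1, the markers, the other genes above the lowest rank and the neighbours. Promoter sequences and gene order are from RefSeq (GRCh38.p14), matched by symbol. Python 3.11.15, numpy 2.4.6 and pandas 2.3.3 were used. The alternatives tried were other pseudocounts, filters, scalings and a 1.5-fold threshold.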

Additional observations from a re-analysis of the deposited data

Results flagged for a closer look

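Some genes had a drug difference of opposite direction with and without the other drug. Those listed are among the 6 genes or among the pathway genes at least 2-fold apart in a GSK458 pair. The pathway genes also had to reach 2-fold in one of the pairs compared. Each value rests on 1 library per group, and the difference between the pairs was not tested. For SPON2 the As2O3 difference was −0.81 without GSK458 and 0.39 with it, and for CYP27A1 it was −0.04 and 0.06, both close to 0. The As2O3 difference also reversed for GADD45A (2.51 and −0.17), GADD45B (1.31 and −0.31) and CYR61 (0.27 and −1.38). The GSK458 difference reversed for GADD45A, at 1.17 without As2O3 and −1.51 with it, and its level was 4.78 FPKM in the control, 32 FPKM with As2O3, 12 FPKM with GSK458 and 10.6 FPKM with both. It also reversed for GADD45B (0.38 and −1.24), CDKN1A (0.18 and −1.21), CYR61 (0.43 and −1.23) and STS (−1.2 and 0.49). Smaller reversals in the lists, such as that of FZD4 (−0.74 and 0.41), are not counted here. Genes that reached 2-fold in an As2O3 pair only are not counted either. TXNIP is such a gene, with As2O3 differences of 1.08 without GSK458 and −0.55 with it.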

How the results depend on the processing

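No result has a replicate error, since every group is 1 library. No paired analysis was possible because each group has 1 library and no test was made. Of 30 values of the 6 genes (4 comparisons and the departure), 29 kept their side of 2-fold with 0.1 FPKM added in place of 1, 27 with 5 FPKM added, and 30 under the other scalings. The exceptions were SPON2 in As2O3 against control (−1.08) with 0.1 FPKM added, and HSD17B2 in As2O3 against control (−0.39) and the departures of SPON2 (0.71) and HSD17B2 (0.38) with 5 FPKM added. The filters do not enter these 30 values, so they could not change them. Median-of-ratios scaling hardly moved any value, so it is a weak check. With libraries rescaled to a common sum 29 kept their sign, the exception being HSD17B2 in the combination against GSK458 (0.04, otherwise just below 0). All 6 genes stayed at least 2-fold higher in both GSK458 pairs in every setting. The departure of HSD17B2 ranged from 0.38 to 2.51 and that of SPON2 from 0.71 to 1.5. Counts of genes at least 2-fold higher moved more. With 0.1 FPKM added they were 473 for GSK458 against control (288 as reported), 584 for both drugs against As2O3 (280), 170 for both drugs against GSK458 (79) and 188 in both GSK458 pairs (93). With 5 FPKM added they were 124, 69, 37 and 32, and 138 for As2O3 against control (254). At a 1.5-fold threshold they were 1056, 1160, 269 and 443, and 911 for As2O3 against control, where 2 of the 6 genes then passed. A minimum mean of 5 FPKM gave 153 for both drugs against As2O3. Rescaling to a common sum gave 469 there and 136 for both drugs against GSK458. Read numbers are unknown, so low levels such as SHISA2 without drug and HSD17B2 with As2O3 have unknown counting error.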
